A study of Mus musculus with 18 samples.

Results

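Carbonic anhydrases are the enzymes that turn carbon dioxide and water into bicarbonate and protons and back. The description below covers 9 mouse genes of this family, Car2, Car3, Car4, Car5b, Car8, Car9, Car12, Car13 and Car14, out of 35275 genes listed in the deposited expression table. They were taken as a list by symbol, and Car3 was chosen by its measured log2 difference between MUNC spliced and control cells in growth medium. For that reason that difference is given as a description without a test. What put the other 8 on the list is not recorded in the sources used here. The list was made with earlier results of these data known, so the p-values of its other tested genes may not be independent of that choice. Of the 9, 6 reached 0.5 FPM in at least 3 libraries and could be tested (Car2, Car3, Car5b, Car8, Car9 and Car13), while Car4, Car12 and Car14 did not.

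The libraries came from C2C12 cells, a mouse myoblast line whose cells can form myotubes after serum is lowered, and every group carried the labels' description PAX7 NEG. Wild-type control cells were compared with cells labelled as overexpressing MUNC spliced and with cells labelled as overexpressing MUNC genomic, the spliced and the unspliced form of a noncoding transcript made from the region before Myod1. Each of the 3 lines was sampled in growth medium with 20% fetal bovine serum at about 80% confluency (GM) and after 3 days in differentiation medium with 2% horse serum (DM3). That gave 6 groups of 3 biological replicates, or 18 libraries of polyadenylated RNA. Groups follow the titles, with which the tissue label agreed in all 18 samples. The source label did not: it named myotubes for 4 of the 9 GM samples and myoblasts for 5 of the 9 DM3 samples, which bears on every comparison of the media. The labels do not say whether a line was 1 clone, which promoter drove MUNC, or whether the control carried an empty vector. None of 4 spellings tried (Munc, MUNC, DRReRNA and Drrerna) was listed among the genes, so its own level was not analysed here.

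Members of the family sit in different places in the cell. Car2, Car3 and Car13 are cytosolic, Car5b is mitochondrial, and Car4, Car9, Car12 and Car14 face the outside of the cell on the membrane. Car8 has lost the zinc-binding site and does not catalyse the reaction. In muscle, Car3 is the abundant cytosolic form of slow oxidative fibres, a slow enzyme that also carries reactive thiols, and it is very abundant in adipocytes too. Car9 is a standard target of the hypoxia-inducible factors and helps tumour cells to export acid.

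Recovered depth was 38416702 to 68788327 reads per library, and 3 reads, the limit set for a gene without reads, corresponded to at most 0.0757 FPM. Levels are FPM, reads scaled by a factor for each library. Changes are differences of log2(FPM + 1) from limma over 13869 genes, and a change is called where its adjusted p (Benjamini-Hochberg) is below 0.05, and this scale understates the change of genes near 0. Control cells at DM3 had Myod1 at 0.0993, Myog at 0.344 and Myh3 at 0.444 FPM on average, so these markers of differentiating muscle were nearly absent, while Myf5 stood at 103 FPM. Other muscle genes were present there, with means of 97.3 FPM for Chrna1, 77.5 for Des and 76.4 for Cdh15. Of 8 tested myoblast and myotube markers, 4 were higher and 0 lower in control cells at DM3 than in GM. Over all genes 29.6% were higher and 28.6% lower in that comparison. In MUNC spliced cells at DM3 the means were 28.6 FPM for Myod1, 106 for Myog and 79.8 for Myh3, and in MUNC genomic cells they were 18.4, 9.70 and 9.64 FPM. Des averaged 58.8 FPM in MUNC spliced and 898 FPM in MUNC genomic cells at DM3. The DM3 groups therefore differed in muscle markers as well as in carbonic anhydrases, and the part of one in the other was not tested. In such bulk samples, fewer cells of a type and less RNA per cell cannot be told apart.

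Set against each other per kb of exon, the members made up a different mixture in each line. Car13 was the leading transcript in control cells, at 50.3 ± 10.95 FPM per kb in GM and 85.7 ± 10.98 in DM3 (mean ± SD, n = 3 here and below), which was 70.1% and 59.4% of the members' summed FPM per kb. Its share in MUNC genomic cells was 87.0% in GM and 88.9% in DM3. In MUNC spliced cells Car3 held 48.3% in GM and 53.5% in DM3, against 2.78% and 1.64% in control cells, and Car13 came next with 44.1% and 42.3%. Car9 reached 18.4% of the mixture in control cells at DM3 and no more than 3.89% in any other group. The plot of shares by group shows the red block of Car3 in the MUNC spliced bars and the yellow block of Car9 in the control DM3 bar.

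**Figure D1:**
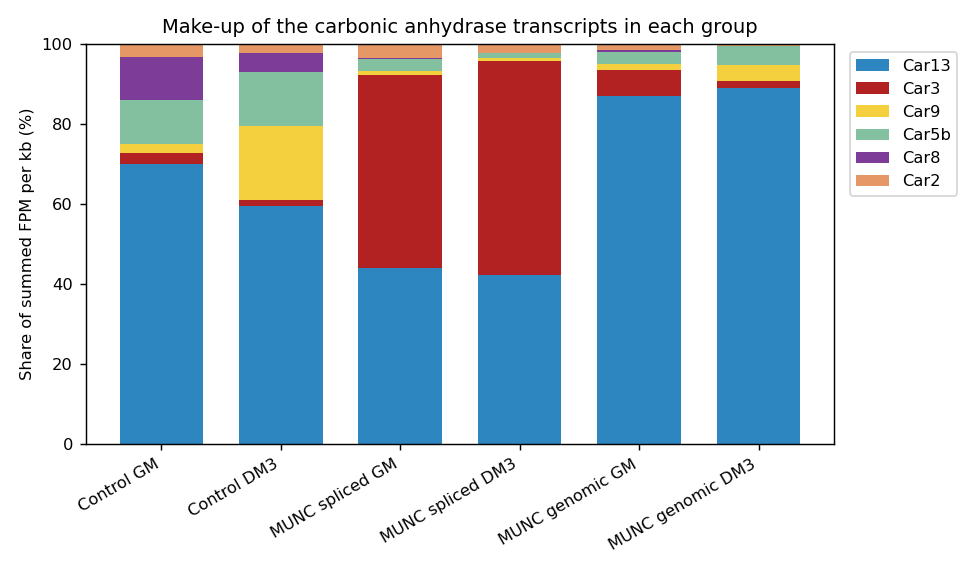
Share of each carbonic anhydrase gene in the members' summed mean FPM per kb of exon (vertical axis, percent), in the 6 groups (horizontal axis). Car13 fills 70.1% of the control GM bar, and Car3 fills 53.5% of the MUNC spliced DM3 bar.

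Car3 was low in control cells and among the abundant genes of MUNC spliced cells. Control GM libraries held 9.90, 5.93 and 1.35 FPM and MUNC spliced GM libraries 509, 590.1 and 111 FPM, a 70.4-fold difference of means and 5.85 ± 0.65 in log2 (± SE). Every MUNC spliced library lay above every control library. At DM3 the control libraries held 5.88, 8.66 and 5.78 FPM, and the MUNC spliced libraries 1519.5, 926 and 1064 FPM. These DM3 libraries are other samples than the GM libraries that brought Car3 onto the list, but they come from the same lines. They differed by 7.22 ± 0.65 in log2, or 173-fold (limma adjusted p = 2.5e-07), and did not overlap. Because Car3 was chosen on a difference between these lines, this p is not independent of that choice. The authors' deposited table gave 7.43 for the same comparison.

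The control and MUNC spliced GM libraries are those that chose Car3, so every further Car3 comparison that contains either group is given as a difference with no p. Within MUNC spliced cells Car3 was 2.90-fold higher at DM3 than in GM, and the groups did not overlap (log2 1.82 ± 0.65). Without MUNC spliced GM replicate 3, the lowest of its group, the difference was 1.06. In control cells the DM3 and GM libraries of Car3 overlapped (log2 0.45 ± 0.65). The difference between these differentiation effects was 1.38 ± 0.91, and it contains the difference in GM on which Car3 was chosen.

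MUNC genomic cells had a far smaller amount of Car3, with 29.8, 34.7 and 6.32 FPM in GM and 12.9, 9.91 and 7.04 FPM in DM3. Against control the GM difference was 1.83 ± 0.65 in log2, or 1.21 without control GM replicate 3. Replicate 3 of MUNC genomic GM lay inside the control range. At DM3, in libraries that did not choose the gene, MUNC genomic and control cells overlapped (0.48 ± 0.65, limma adjusted p = 0.59). The difference of the differentiation effects of MUNC genomic and control cells was -1.36 ± 0.91. MUNC spliced exceeded MUNC genomic cells at DM3 by 6.75 ± 0.65, or 118-fold (limma adjusted p = 3.3e-07), with no overlap. MUNC spliced is a line on which Car3 was chosen, so this p is not independent of that choice either. In GM the difference was 4.01 ± 0.65. The order of the 6 groups was thus MUNC spliced DM3, MUNC spliced GM, MUNC genomic GM, MUNC genomic DM3, control DM3 and control GM, with overlap between each of the last 4 and its neighbour.

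**Figure D2:**
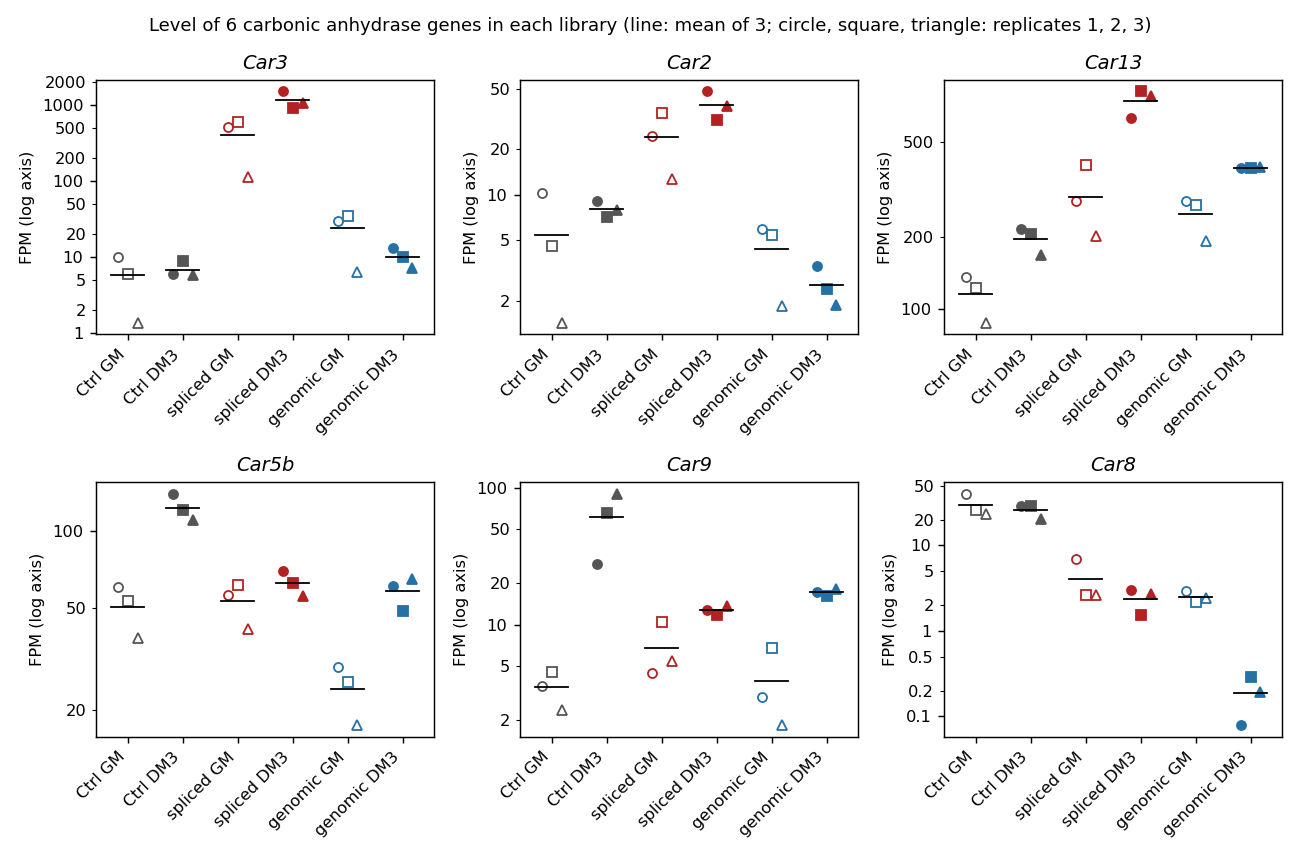
FPM of 6 carbonic anhydrase genes in each library (log vertical axes, 1 panel per gene), with circles, squares and triangles for replicates 1, 2 and 3 and a line at the group mean; open symbols are GM and filled symbols DM3. Car3 runs from 1.35 FPM in a control GM library to 1519.5 FPM in a MUNC spliced DM3 library, and the GM triangles are the lowest points for Car3, Car2, Car13 and Car5b in every line.

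Replicate 3 of GM was the lowest of its group for Car3, Car2, Car13 and Car5b in all 3 lines, and the part of whatever those libraries share in the results was not tested. With all libraries the log2 change of Car3 in MUNC genomic cells from GM to DM3 was an uncalled -0.91 ± 0.65 (limma adjusted p = 0.26). Without MUNC genomic GM replicate 3 alone, a planned setting, it was -1.64 (limma adjusted p = 0.043). Without GM replicate 3 of every line, a setting chosen after seeing the data, the same change had a limma adjusted p of 3.0e-04. The libraries of the other lines enter that p only through the shared estimate of the spread.

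Car2, a fast cytosolic enzyme found in red blood cells, osteoclasts and many other tissues, went with Car3 in MUNC spliced cells at a much lower level. Control GM libraries held 10.3, 4.57 and 1.43 FPM and MUNC spliced GM libraries 24.5, 34.8 and 12.7 FPM, with no overlap (log2 2.12 ± 0.46, 4.42-fold, limma adjusted p = 0.0020). At DM3 the control had 9.14, 7.12 and 7.96 FPM and MUNC spliced cells 48.4, 31.0 and 38.7 FPM, again without overlap (2.14 ± 0.46, 4.88-fold, limma adjusted p = 0.0013). The interaction was 0.02 ± 0.65 (limma adjusted p = 0.99).

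In MUNC genomic cells Car2 moved the other way. At DM3 its libraries held 3.40, 2.38 and 1.87 FPM, all below the control (-1.37 ± 0.46, 3.16-fold lower, limma adjusted p = 0.025). Leaving out either of control DM3 replicates 1 and 3 or of MUNC genomic DM3 replicates 2 and 3 put the adjusted p between 0.057 and 0.083. With all libraries the call was also lost when no filter on low values was used (limma adjusted p = 0.0595). In GM the 5.93, 5.40 and 1.85 FPM of MUNC genomic cells lay within the control range (-0.09 ± 0.46, limma adjusted p = 0.92). The MUNC lines therefore differed in Car2 by 3.51 ± 0.46 at DM3, or 15.4-fold (limma adjusted p = 1.1e-05), and by 2.21 ± 0.46 in GM (limma adjusted p = 0.0013), without overlap in either medium. The interaction for MUNC genomic cells was -1.28 ± 0.65 and was not called (limma adjusted p = 0.26), but it passed with the replicate block within each medium (limma adjusted p = 0.011).

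Car13, a cytosolic enzyme of many tissues, was the most abundant member of control and MUNC genomic cells and rose in every comparison with control and in every line on differentiation. In GM the libraries held 137, 123 and 87.7 FPM in control, 283, 402 and 202 in MUNC spliced, and 283, 272 and 193 FPM in MUNC genomic cells. Both MUNC lines lay above control, by 1.31 ± 0.22 in log2 for MUNC spliced (limma adjusted p = 2.2e-04) and by 1.11 ± 0.22 for MUNC genomic (limma adjusted p = 0.0012). At DM3 control libraries held 217, 206 and 169 FPM, MUNC spliced libraries 632, 818 and 778, and MUNC genomic libraries 392, 390.4 and 394 FPM. The DM3 groups stood fully apart. MUNC spliced was 3.77-fold above control (1.91 ± 0.22, limma adjusted p = 3.4e-06) and MUNC genomic 1.99-fold (0.996 ± 0.22, limma adjusted p = 0.0016).

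Between the MUNC lines Car13 differed at DM3, by 0.91 ± 0.22 (limma adjusted p = 0.0027), while in GM the libraries overlapped (0.21 ± 0.22, limma adjusted p = 0.48). From GM to DM3 Car13 rose 1.70-fold in control (0.78 ± 0.22, limma adjusted p = 0.0057), 2.51-fold in MUNC spliced (1.37 ± 0.22, limma adjusted p = 2.1e-04) and 1.57-fold in MUNC genomic cells (0.67 ± 0.22, limma adjusted p = 0.016). The last of these was not called without MUNC genomic GM replicate 3 (0.50, limma adjusted p = 0.092). The interaction for MUNC spliced cells was 0.59 ± 0.31 and was not called (limma adjusted p = 0.20), but it passed with the replicate block within each medium (limma adjusted p = 0.022).

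Car13, Car1, Car3 and Car2 lie next to each other on chromosome 3, from 14641727 to 14900770 (mm10), with 13.7 kb between the end of Car3 and the start of Car2. Car1, the enzyme of red blood cells, is no listed member but belongs to the cluster. It was scarce, at 0.108 to 0.495 FPM in control GM and 2.56 to 3.07 FPM in MUNC spliced DM3, and it too was higher in MUNC spliced than in control cells, by 0.76 ± 0.24 in GM (limma adjusted p = 0.024) and 1.09 ± 0.24 at DM3 (limma adjusted p = 0.0019). All 4 genes of the cluster were thus higher in MUNC spliced cells in both media, with Car3 in GM chosen for it. Among all tested genes 18.2% were called higher in MUNC spliced than in control cells in GM, and 22.3% at DM3. At DM3 they split in MUNC genomic cells, with Car13 higher, Car2 lower, and Car1 (0.22, limma adjusted p = 0.52) and Car3 not called.

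Outside the cluster, Lrrcc1, a centrosome gene before Car13, was higher in MUNC spliced cells by 0.74 in GM (limma adjusted p = 0.0033) and 0.99 at DM3 (limma adjusted p = 2.3e-04). E2f5 and 1810022K09Rik, between Lrrcc1 and Car13, were not called in MUNC spliced cells in either medium (E2f5 -0.23 and 0.42, 1810022K09Rik -0.27 and 0.09). Ralyl and Slc7a12 on that side and Gm9733, Sirpb1a, Sirpb1b, Sirpb1c and Gm5150 beyond Car2 were at or near 0 reads. On the plot of the neighbourhood the DM3 changes in MUNC spliced cells are 0.99 at Lrrcc1, 0.42 at E2f5 and 0.09 at 1810022K09Rik. They are 1.91 at Car13, 1.09 at Car1, 7.22 at Car3 and 2.14 at Car2. The log2(FPM + 1) scale understates the change of Car1, which averaged 0.814 FPM in control and 2.85 FPM in MUNC spliced cells at DM3. The part of position in these changes was not tested.

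**Figure D3:**
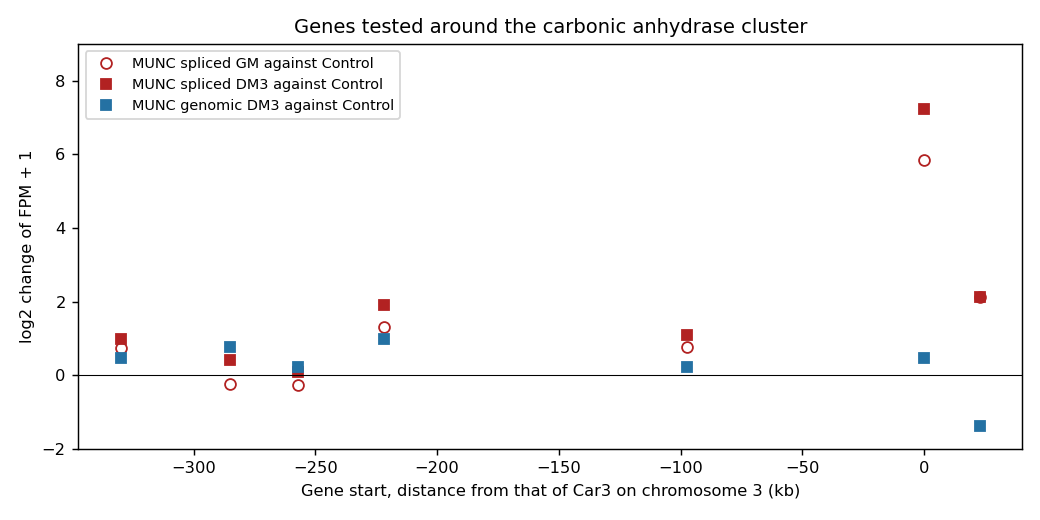
Log2 change against control (vertical axis) of the tested genes around the carbonic anhydrase cluster, placed by the distance of their start from that of Car3 (horizontal axis, kb). Red symbols are MUNC spliced cells (open for GM, filled for DM3) and blue squares MUNC genomic cells at DM3; Car3 stands at 5.85 and 7.22 in MUNC spliced cells and at 0.48 in MUNC genomic cells.

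Car5b supplies bicarbonate inside mitochondria. It lies on the minus strand of chromosome X, from 163976822 to 164027997 (mm10). It rose on differentiation in control and in MUNC genomic cells, and not detectably in MUNC spliced cells. Control libraries held 60.5, 53.3 and 38.1 FPM in GM and 140.4, 121 and 110.4 FPM in DM3 (1.29 ± 0.20, 2.45-fold, limma adjusted p = 5.2e-05). MUNC genomic libraries went from 29.4, 25.7 and 17.4 FPM to 61.0, 48.5 and 65.0 FPM (1.25 ± 0.20, limma adjusted p = 9.4e-05). MUNC spliced libraries overlapped, with 56.2, 61.7 and 41.4 FPM in GM and 69.7, 62.6 and 55.7 FPM in DM3 (0.25 ± 0.20, limma adjusted p = 0.35).

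The differentiation effect on Car5b was smaller in MUNC spliced than in control cells by 1.04 ± 0.29 (limma adjusted p = 0.024). This call was lost without control GM replicate 3, MUNC spliced GM replicate 2 or control DM3 replicate 2 (adjusted p 0.051 to 0.066). With all libraries it was also lost when no filter on low values was used (limma adjusted p = 0.0513). At DM3 both MUNC lines were below control, by -0.97 ± 0.20 for MUNC spliced (limma adjusted p = 0.0011) and -1.08 ± 0.20 for MUNC genomic (limma adjusted p = 4.4e-04), and neither overlapped with it. In GM MUNC genomic was below control (-1.04 ± 0.20, limma adjusted p = 0.0011), whereas MUNC spliced overlapped with control (0.07 ± 0.20, limma adjusted p = 0.81). The MUNC lines differed in GM (1.12 ± 0.20, limma adjusted p = 4.2e-04) and overlapped at DM3 (0.11 ± 0.20, limma adjusted p = 0.69).

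Car9 lies on chromosome 4, from 43506966 to 43513729 on the plus strand (mm10). RefSeq (GRCm38.p6) gives promoter windows for 5 of the 9 members, Car4, Car5b, Car9, Car12 and Car14. They were searched on both strands for ACGTG and GCGTG, the core letters that hypoxia-inducible factors bind, because Car9 is a known target and Car5b followed it most closely among the members. The 250 bases before the RefSeq start held 1 match for Car9, 5 for Car5b, 1 for Car14 and 0 for Car4 and Car12, and 38.6% of 32851 such windows in the table held at least 1. The sequences run 5′ to 3′ on the strand of the gene, and capitals mark the matches. For Car9, 29 bases around its match are shown (chr4:43506996-43507024, plus strand), which GENCODE M21 places in the first exon because it starts the gene earlier than RefSeq does. For Car5b the whole window is shown (chrX:164028011-164028260, minus strand).
Car9: ctatttccgatgCACGTacagcccgtcca
Car5b: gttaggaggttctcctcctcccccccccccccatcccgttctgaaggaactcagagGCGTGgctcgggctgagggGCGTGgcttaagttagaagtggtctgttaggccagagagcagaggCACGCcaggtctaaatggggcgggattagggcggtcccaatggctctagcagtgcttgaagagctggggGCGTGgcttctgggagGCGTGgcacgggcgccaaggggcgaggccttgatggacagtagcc
The Car9 match is ACGTG read on the opposite strand, a form present in 16.6% of the windows, and the 5 matches of Car5b are all GCGTG, 1 of them on the opposite strand. These matches describe the letters and do not show binding.

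Car9 had the largest differentiation effect of the 6 tested members in control cells. Control libraries held 3.55, 4.50 and 2.38 FPM in GM and 27.6, 65.4 and 90.5 FPM in DM3, with no overlap (3.67 ± 0.39, 17.6-fold, limma adjusted p = 1.5e-06). The control DM3 replicates themselves spread widely, with replicate 1 the lowest. MUNC genomic libraries went from 2.95, 6.77 and 1.85 FPM to 17.3, 16.1 and 18.2 FPM (2.03 ± 0.39, 4.46-fold, limma adjusted p = 4.4e-04). MUNC spliced libraries held 4.44, 10.4 and 5.39 FPM in GM and 12.7, 11.7 and 13.8 FPM in DM3, which did not overlap but were not called (0.90 ± 0.39, limma adjusted p = 0.084).

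The differentiation effect on Car9 was smaller in MUNC spliced than in control cells by 2.77 ± 0.55 (limma adjusted p = 0.0051). For MUNC genomic cells the corresponding difference was -1.63 ± 0.55 and was not called (limma adjusted p = 0.081), though it passed with the replicate block (limma adjusted p = 0.041), with the block within each medium (0.0090), with DESeq2 (0.018), without MUNC genomic GM replicate 3 (0.039) and without control DM3 replicate 1 (0.011). At DM3 Car9 was 4.80-fold below control in MUNC spliced (-2.02 ± 0.39, limma adjusted p = 5.7e-04) and 3.56-fold below in MUNC genomic cells (-1.62 ± 0.39, limma adjusted p = 0.0034). In GM the libraries of all 3 lines overlapped, with 0.75 ± 0.39 for MUNC spliced (limma adjusted p = 0.15) and 0.02 ± 0.39 for MUNC genomic cells (limma adjusted p = 0.99). Between the MUNC lines the GM difference was 0.73 ± 0.39 (limma adjusted p = 0.16), and with the replicate block within each medium it passed (0.039). MUNC spliced against control in GM also passed with the replicate block within each medium (limma adjusted p = 0.036) and in the authors' deposited table (0.96, adjusted p = 0.027). An antisense gene, Gm12454, overlaps the first part of Car9 on the opposite strand and reached 18.1 FPM. Whether counting used strand is not given in the sources used here, so reads of this pair cannot be told apart where they overlap.

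A list of 26 hypoxia genes was set beside Car9, with 24 tested. In control cells 13 rose and 1 fell on differentiation, with a median of 0.53 against 0.02 over all genes, and Bnip3, a mitophagy receptor (1.88 ± 0.32), and Pdk1, the kinase that turns off pyruvate dehydrogenase (1.73 ± 0.32), rose most. Car9 changed more than each of the 24. In MUNC spliced cells 9 rose and 1 fell (median 0.27), and in MUNC genomic cells 12 rose and 3 fell (median 0.30). Over all genes 29.6% rose and 28.6% fell in control, 17.2% and 18.4% in MUNC spliced, and 26.3% and 25.1% in MUNC genomic cells. At DM3, 15 of the 24 were lower and 0 higher in MUNC spliced than in control cells (median -0.65, against 0.01 over all genes), led by Ero1l, an oxidase of the endoplasmic reticulum (-1.88 ± 0.27), and Egln3, an oxygen-sensing prolyl hydroxylase (-1.48 ± 0.19). For MUNC genomic cells at DM3, 8 were lower and 3 higher (median -0.27, against -0.01). Ero1l (-2.35 ± 0.27) and Slc2a1, the basal glucose transporter (-1.23 ± 0.17), were lowest against control, and Hif1an (0.35) and Vhl (0.32), which restrain the factor, were higher. At DM3 the shares of all genes were 22.3% higher and 21% lower in MUNC spliced cells, and 19.3% and 20.9% in MUNC genomic cells.

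In GM, where Car9 was not called, the hypoxia list had 8 lower and 0 higher genes in MUNC spliced and 5 lower and 0 higher in MUNC genomic cells (medians -0.29 and -0.22). Over all genes 17.3% were lower and 18.2% higher in MUNC spliced cells in GM, and 14.5% and 12.2% in MUNC genomic cells. The interaction for MUNC spliced cells, which was called for Car9, was called by limma for 0 of the 24 (3 at an unadjusted p under 0.05), by edgeR for 0 and by DESeq2 for 1. That for MUNC genomic cells was called by limma for 1 of the 24, which was higher (5 at an unadjusted p under 0.05). It was called by edgeR for 1 and by DESeq2 for 2. With limma the interaction was called for 14.4% of all genes in MUNC spliced and 8.81% in MUNC genomic cells. No oxygen measurement comes with the labels.

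**Figure D4:**
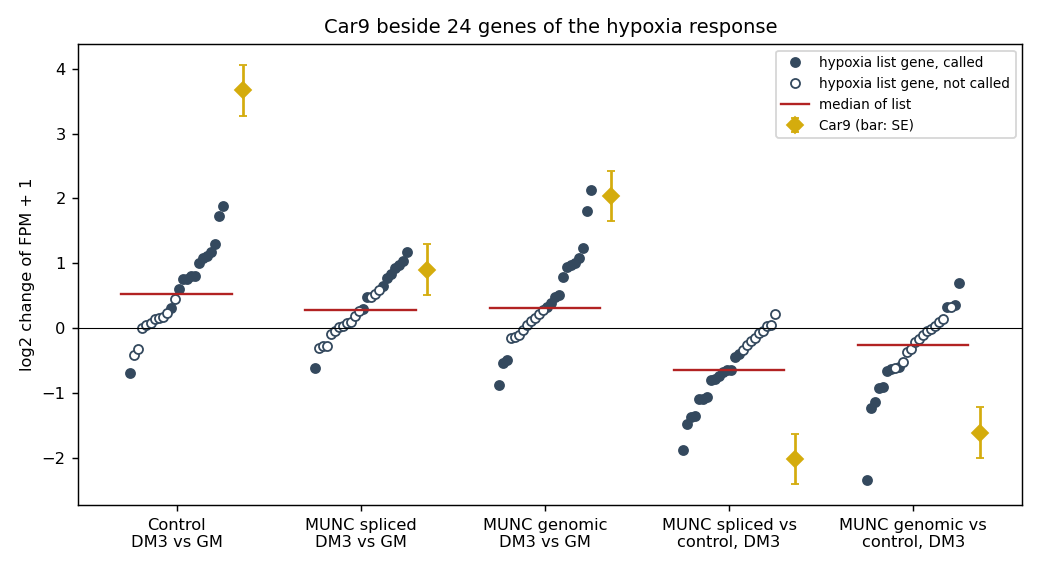
Log2 change (vertical axis) of 24 tested hypoxia genes (dark points, filled where called, sorted within each comparison), their median (red line) and Car9 (yellow diamond with its SE) in 5 comparisons (horizontal axis). Car9 stands at 3.67 in control cells on differentiation and at -2.02 and -1.62 in the MUNC lines against control at DM3.

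Car8, the member without catalytic activity, binds the inositol trisphosphate receptor and is best known from Purkinje cells. Of the 6 tested members it was the one furthest below control in both MUNC lines and both media. Control libraries held 40.4, 25.8 and 23.6 FPM in GM and 28.8, 28.9 and 20.2 FPM in DM3, which overlapped (-0.18 ± 0.28, limma adjusted p = 0.61). MUNC spliced libraries held 6.94, 2.64 and 2.62 FPM in GM and 2.98, 1.52 and 2.68 FPM in DM3. Both were below all control libraries, 7.36-fold in GM (-2.67 ± 0.28, limma adjusted p = 2.0e-06) and 10.9-fold at DM3 (-3.00 ± 0.28, limma adjusted p = 3.7e-07).

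In MUNC genomic cells Car8 stood at 2.93, 2.16 and 2.46 FPM in GM, 11.9-fold below control (-3.10 ± 0.28, limma adjusted p = 2.9e-07), and at 0.0791, 0.286 and 0.195 FPM in DM3, 33 reads in all, 139-fold below control (-4.49 ± 0.28, limma adjusted p = 1.7e-09). On recovered reads edgeR gave -7.04 for the DM3 difference, and the authors' deposited table gave -7.05. MUNC genomic was the line in which differentiation lowered Car8, 13.5-fold between the group means (-1.57 ± 0.28, limma adjusted p = 2.2e-04), against -0.50 ± 0.28 in MUNC spliced cells (limma adjusted p = 0.17). The interaction for MUNC genomic cells was -1.39 ± 0.39 (limma adjusted p = 0.036), -3.47 with edgeR on recovered reads (edgeR adjusted p = 0.0036). On the log2(FPM + 1) scale it was lost in 10 of 18 fits that left out 1 library, with adjusted p up to 0.093. With all libraries it was also lost on that scale when no filter on low values was used (limma adjusted p = 0.0888). Between the MUNC lines Car8 differed at DM3 (1.49 ± 0.28, limma adjusted p = 3.7e-04) and overlapped in GM (0.43 ± 0.28, limma adjusted p = 0.25).

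The membrane forms other than Car9 were scarcely present. Car4 had 0 reads in every library, which allows at most 0.0757 FPM. Car12 had 26 reads in 8 of the 18 libraries and at most 0.135 FPM. Car14 had 121 reads over the 18 libraries, between 0.0390 and 0.429 FPM, and its end overlaps that of Aph1a on the opposite strand. No fold is given for these 3 genes.

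Among 9 further genes with a carbonic anhydrase domain, 5 were tested. Car11, a secreted relative without activity, rose on differentiation in all 3 lines, from 2.24 to 2.97 FPM to 6.69 to 9.39 FPM in control (1.31 ± 0.28, limma adjusted p = 8.3e-04). Its changes were 0.79 in MUNC spliced (limma adjusted p = 0.038) and 1.41 in MUNC genomic cells (limma adjusted p = 5.8e-04). Ptprg, a receptor phosphatase with a carbonic anhydrase domain outside the cell, fell in MUNC genomic cells. Its libraries held 56.5 to 94.6 FPM in control GM and 8.42 to 12.3 FPM in MUNC genomic GM (-2.74 ± 0.16, limma adjusted p = 9.7e-10), and at DM3 94.5 to 99.5 against 15.4 to 16.0 FPM (-2.55 ± 0.16, limma adjusted p = 1.7e-09). Car6, the salivary enzyme, varied most within groups, from 0.666 to 9.95 FPM in control GM. It was higher in MUNC spliced DM3, at 2.09 to 8.28 FPM, than in MUNC spliced GM, at 0.312 to 1.77 FPM (1.89 ± 0.57, limma adjusted p = 0.017). Car7 never passed 0.768 FPM, and Car5a, Car10, Car15 and Ptprz1 stayed below the level for testing.

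The 6 tested members can be read against the share of all genes called in the same fit. On differentiation 3 rose and 0 fell in control, where 58.2% of genes were called, 2 rose and 0 fell in MUNC spliced (35.6% of genes), and 3 rose and 1 fell in MUNC genomic cells (51.4%). Against control in GM, 3 were higher and 1 lower in MUNC spliced cells, Car3 being one by its choice (35.5% of genes called), and 2 were higher and 2 lower in MUNC genomic cells (26.8%). At DM3, 3 were higher and 3 lower in MUNC spliced (43.3%) and 1 higher and 4 lower in MUNC genomic cells (40.3%). Between the MUNC lines, 3 in GM (35.8%) and 4 at DM3 (44.2%) were called, each higher in MUNC spliced cells. The interactions called 2 members for MUNC spliced (14.4%), Car5b and Car9, and 1 for MUNC genomic cells (8.81%), Car8. Car3 is among those higher in MUNC spliced cells on differentiation, in MUNC genomic cells against control in GM and between the MUNC lines in GM, each of which uses libraries that chose it. With 6 genes such counts are a description of the members. The comparisons of both MUNC lines with control share the control libraries.

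**Figure D5:**
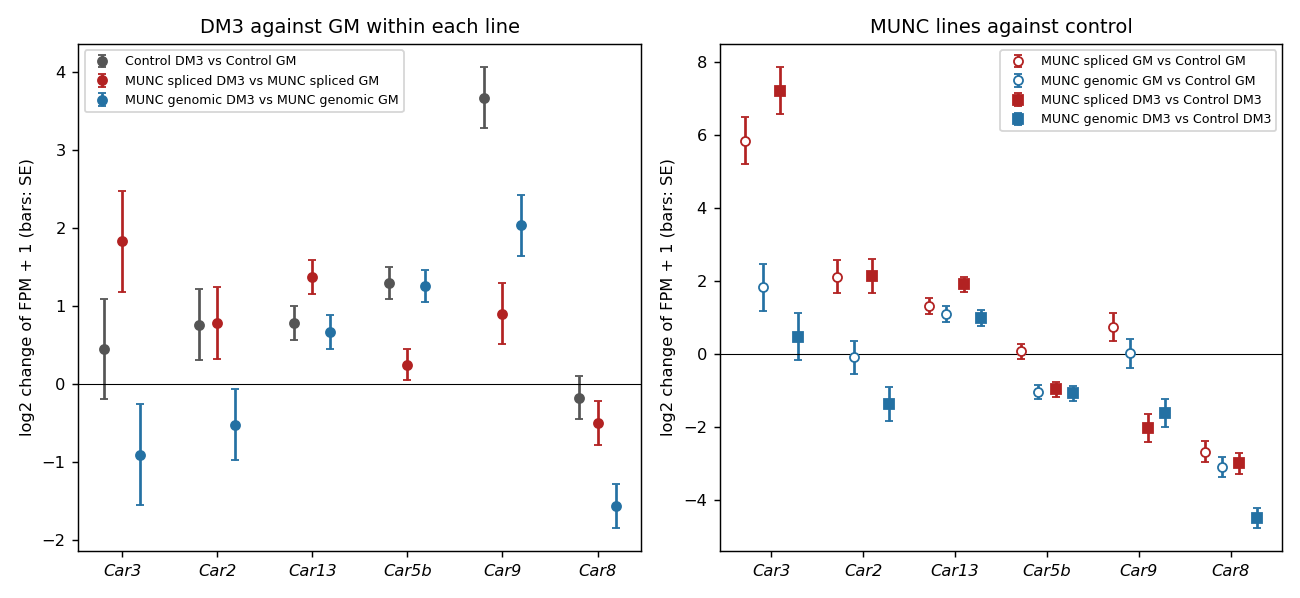
Log2 changes with their SE (vertical axes) of the 6 tested carbonic anhydrase genes (horizontal axes), on differentiation in each line (left) and in the MUNC lines against control (right; open circles GM, filled squares DM3). Car9 stands at 3.67, 0.90 and 2.03 in control, MUNC spliced and MUNC genomic cells on differentiation, and Car8 lies between -2.67 and -4.49 in all 4 comparisons with control.

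Carbonic anhydrases work beside carriers that move bicarbonate, protons and lactate. Of 12 bicarbonate transporters 10 were tested. In MUNC spliced cells at DM3, 2 were higher and 5 lower than in control (median -0.53, against 0.01 over all genes). Slc4a4, the sodium bicarbonate cotransporter, was lower in both MUNC lines at DM3, by -2.22 ± 0.30 in MUNC spliced and -1.99 ± 0.30 in MUNC genomic cells. Slc4a2, an anion exchanger, was higher in both, by 0.74 ± 0.14 and 1.02 ± 0.14. MUNC genomic cells at DM3 had 2 higher, Slc4a2 and Slc4a3, and 1 lower (median 0.10). On differentiation of control cells 2 rose and 3 fell, with Slc4a3 (0.87) and Slc4a7 (0.82) rising. Over all genes 29.6% rose and 28.6% fell on differentiation of control cells. Compared with control at DM3, 22.3% were higher and 21% lower in MUNC spliced cells, and 19.3% and 20.9% in MUNC genomic cells.

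Of 17 proton and monocarboxylate carriers 14 were tested. The widest differences were in MUNC genomic cells. Slc16a3, the lactate exporter of glycolytic cells, averaged 51.8 FPM in GM against 1.51 in control (4.39 ± 0.19) and 39.8 against 1.59 FPM at DM3 (3.98 ± 0.19, limma adjusted p = 6.6e-11). Slc16a4, another member of that family, rose by 2.27 ± 0.37 in GM and 4.20 ± 0.37 at DM3. In this line 5 were higher and 1 lower in GM, and 4 higher and 2 lower at DM3 (medians 0.28 and 0.29). For all genes the shares in this line were 12.2% higher and 14.5% lower in GM, and 19.3% and 20.9% at DM3. In MUNC spliced cells 2 were higher and 2 lower in GM, and 2 higher and 4 lower at DM3. For all genes the shares in MUNC spliced cells were 18.2% higher and 17.3% lower in GM, and 22.3% and 21% at DM3. Slc16a1, the widespread lactate carrier, was lower there by -1.20 ± 0.09 in GM and -0.99 ± 0.09 at DM3. Aqp1, a water channel that also passes carbon dioxide, fell on differentiation in control by -2.35 ± 0.33, in MUNC spliced by -1.76 ± 0.33 and in MUNC genomic cells by -2.54 ± 0.33.

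Since Car3 marks slow fibres, 17 slow muscle genes were examined, of which 8 were tested. In MUNC spliced cells at DM3, where Car3 was highest, 4 were higher and 2 lower than in control (median 0.41, against 0.01 over all genes). Tnni1, slow troponin I (2.53 ± 0.45), and Casq2, the calcium store protein of slow fibres and heart (2.44 ± 0.33), were higher, while Ppargc1a, a coactivator of oxidative fibres, was lower (-3.48 ± 0.11). In GM, where Car3 was already high in MUNC spliced cells, 0 were higher and 2 lower (median -0.03). For all genes the shares in MUNC spliced cells were 22.3% higher and 21% lower at DM3, and 18.2% and 17.3% in GM. In MUNC genomic cells at DM3 Tnni1 was higher too (2.09 ± 0.45), and Ppargc1a, at 12.1 FPM on average in control DM3, had 0 reads in MUNC genomic DM3. Tnnt1, slow troponin T, rose on differentiation in all 3 lines (4.51, 2.73 and 4.54). Whether Car3 follows the slow muscle genes was not tested.

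All 18 genes of thiol and oxidant defence, a role ascribed to Car3, were tested. On differentiation 11 fell and 2 rose in control, 10 fell and 1 rose in MUNC spliced, and 11 fell and 2 rose in MUNC genomic cells (medians -0.65, -0.53 and -0.77, against 0.02, -0.01 and 0.02 over all genes). Of all genes 28.6%, 18.4% and 25.1% fell in these comparisons, and 29.6%, 17.2% and 26.3% rose. Nqo1, a quinone reductase, fell in all 3 (-1.82, -1.54 and -1.82). Against control, MUNC spliced cells had 0 higher and 4 lower in GM, with Gclm and Gsr, which make and recycle glutathione, at -0.99 and -0.64. At DM3 they had 1 higher and 3 lower (median -0.08). Over all genes 18.2% were higher and 17.3% lower in MUNC spliced cells than in control in GM, and 22.3% and 21% at DM3.

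Across the 18 libraries the gene most like Car3, among 11035 tested genes averaging at least 5 FPM in at least 1 group, was Tgfb2, a growth factor (Pearson r 0.98, Spearman rho 0.95 on log2(FPM + 1)). It averaged 54.8 ± 14.0 FPM in MUNC spliced GM and 115 ± 19.4 in MUNC spliced DM3, and 15.6 to 20.5 FPM in the other 4 groups. Next came Col12a1, a fibril-associated collagen, Rspo3, a Wnt enhancer, Gm11884 and Fam26e (r 0.96 to 0.97). Their Spearman rho was lower, at 0.82 for Col12a1, 0.87 for Rspo3, 0.90 for Gm11884 and 0.91 for Fam26e. For Car2 the closest were Nrep, Olfml3 and Lpar4 (r 0.96). For Car9 they were Cacfd1 (r 0.98), the overlapping Gm12454 (r 0.97) and Ypel4 (r 0.96). Among the members, Car2 went with Car3 (r 0.90) and Car5b with Car9 (r 0.81), while Car8 ran against Car13 (r -0.70). These values describe 18 libraries that share lines, media and replicate numbers, and carry no test.

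Markers of other cells in which carbonic anhydrases are abundant were looked at as well. The summed level of 10 adipocyte markers was 7.22 to 11.4 FPM in control GM and 8.33 to 10.9 in control DM3, and 20.4 to 26.6 and 22.4 to 23.0 FPM in the MUNC spliced groups. In MUNC genomic cells it was 19.1 to 27.4 FPM in GM and 14.7 to 19.5 FPM in DM3. The genes behind the sums differed between lines. Control GM had mainly Pparg (mean 7.03 FPM), MUNC spliced GM had Cebpa (11.2, against 0.450 in control GM) and Pparg (11.01), and MUNC genomic GM had mainly Lpl (14.8). Fabp4 was lower in MUNC spliced than in control GM, at 0.183 against 1.32 FPM. Lep had 0 reads throughout, and Adipoq had 3 reads, all in MUNC spliced GM. Of 8 osteoclast markers, Calcr and Dcstamp had 0 reads, and the sum was 18.9 to 22.8 FPM in MUNC spliced DM3 against 23.4 to 32.9 FPM in control DM3. Of 8 red blood cell markers, Hbb-bs and Hbb-bt had 0 reads, and the sum was 1.94 to 2.68 FPM in MUNC spliced DM3 and 5.25 to 7.35 FPM in control DM3. Summed fibroblast markers were 187 to 569 FPM in MUNC spliced DM3, 138 to 264 in control DM3 and 163 to 288 FPM in MUNC genomic DM3, mostly Dcn. Of 5 tested fibroblast markers, 0 were higher and 1 lower in MUNC spliced than in control cells at DM3 (median 0.14). In MUNC genomic cells at DM3, 3 were higher and 1 lower (median 1.27). Over all genes 22.3% were higher and 21% lower in MUNC spliced cells at DM3, and 19.3% and 20.9% in MUNC genomic cells. Among neuron and glia markers the sum was 11.2 to 22.9 FPM in MUNC spliced DM3 and 7.43 to 7.71 FPM in control DM3, and Snap25 had 0 reads in MUNC spliced cells. Macrophage and endothelial markers summed to at most 1.72 FPM in MUNC spliced DM3 and 5.30 FPM in control DM3. Their part in the levels of Car3 and Car2 was not tested.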

How the data were processed

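Polyadenylated RNA of 18 libraries was sequenced on an Illumina HiSeq, per the labels' protocols. STAR, HTSeq and DESeq2 and the build mm10 are named, without versions, in the submitters' processing notes. The authors deposited 1 table of normalized signal, called FPM in its file name, for 35275 genes. Further tables hold the authors' comparisons, as log2 fold changes, p-values and scores (mean level and Wald statistic), per the file headers. These tables paired gene symbols with identifiers. Gene positions came from GENCODE M21 (GRCm38), which held 97.8% of the identifiers, and promoter windows from RefSeq.

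The steps between FPM values gave whole reads for 100.0% of values (within 0.05 of a read), so FPM are counts divided by size factors. FPM sums were 946834 to 1048477 per library. The main test was limma 3.58.1 (R 4.3.3) on log2(FPM + 1) over all 6 groups with a trended variance and 12 residual degrees of freedom. Of the listed genes, 13869 reached 0.5 FPM in at least 3 libraries and were tested in 11 comparisons, each adjusted by Benjamini-Hochberg. The scripts were tested on simulated data. The planned design assumed this unit, and edgeR 4.0.16 and DESeq2 1.42.0 on the recovered reads were alternatives, with other pseudocounts, filters, scalings and each library left out. The members and gene lists were chosen with earlier results of these data known, so their counts are descriptions.

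Samples with the same replicate number deviated together, with every pair's correlation over 0.1, in 6 of the 9 comparisons of 2 groups. The values were 0.495 to 0.711 for MUNC spliced against control GM. This did not hold for MUNC spliced DM3 against GM (0.0163 to 0.376) or MUNC genomic DM3 against GM (0.0531 to 0.358). It also failed for MUNC spliced against MUNC genomic DM3 (0.0939 to 0.434). The main fit had no replicate block, so its p-values take no account of such pairing. Blocks by replicate number entered alternative runs only.

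Named genes are the 9 members, the other family genes with reads, at most 2 called genes up and 2 down from each list by size of change (higher group at 5 FPM or more), the 5 genes most like Car3 and 3 each for Car2 and Car9, 5 coding neighbours on each side of the cluster, and Myod1, Myog and Myh3. Myf5 and the named cell type markers were chosen after their values were seen.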

Additional observations from a re-analysis of the deposited data

Results flagged for a closer look

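The following 3 tests of a difference between lines passed among the 6 tested members. The differentiation effect differed from that in control cells for Car5b in MUNC spliced cells (-1.04, limma adjusted p = 0.024), for Car9 in MUNC spliced cells (-2.77, limma adjusted p = 0.0051) and for Car8 in MUNC genomic cells (-1.39, limma adjusted p = 0.036).

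Car14 moved in opposite directions between lines in every library, and this difference was not tested. Its mean at DM3 minus that in GM was 0.121 FPM in control, -0.215 FPM in MUNC spliced and -0.0491 FPM in MUNC genomic cells. These values rest on 2 to 17 reads per library.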

How the results depend on the processing

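Of 66 member changes 38 were called, 32 of them in each alternative run, and 0 called changes turned direction. Both the 38 and the 32 include the Car3 difference in GM on which the gene was chosen. They also include other Car3 changes that use those libraries or other libraries of those lines, so these calls were not independent of the choice. The number of members called for MUNC spliced DM3 against GM was 2, and 1 with edgeR, with DESeq2, when the fit held the compared groups alone, or with a pseudocount of 0.1 (1 to 3 with 1 library left out; 1 without MUNC spliced GM replicate 3 or any MUNC spliced DM3 replicate, 3 without MUNC spliced GM replicate 2 or control DM3 replicate 1). For the interaction of MUNC spliced cells it was 2, and 4 with the replicate block within each medium (1 to 2 with 1 library left out; 1 without control GM replicate 3, MUNC spliced GM replicate 2 or control DM3 replicate 2). For the interaction of MUNC genomic cells it was 1, and 0 without a filter, 2 with the replicate block, 2 with DESeq2 and 4 with the replicate block within each medium (0 to 1 with 1 library left out). Both counts of 4 include Car3, whose interactions contain libraries that chose it. The 0 without a filter is limma's count, with more genes in the adjustment. Elsewhere the replicate block moved no count of members called by over 1.5 times. The block within each medium and the fit without GM replicate 3 of every line were chosen after seeing the data.

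Direction turned in 11 uncalled changes. Without GM replicate 3 of every line, Car3 in control cells was -0.18. Car9 in MUNC genomic against control GM was -0.00964 with a pseudocount of 0.1 and -0.030 with quantile normalization. The Car2 interaction for MUNC spliced cells was -0.15 and -0.059 with pseudocounts of 0.1 and 0.5, and -0.034 with equal sums. The Car5b interaction for MUNC genomic cells was 0.011 with quantile normalization. With 1 library left out, the ranges were -0.18 to 0.93 for Car3 and -0.32 to 0.054 for Car8 (control DM3 against GM), -0.11 to 0.24 for Car5b (MUNC spliced against control GM), and -0.66 to 0.45 for Car2 and -0.39 to 0.34 for Car9 (MUNC genomic against control GM). Between the MUNC lines they were -0.039 to 0.45 for Car13 in GM and -0.012 to 0.19 for Car5b at DM3. For the interactions they were -0.52 to 0.59 for Car2 and -0.56 to 0.052 for Car8 (MUNC spliced), and -0.25 to 0.15 for Car5b and -0.28 to 0.077 for Car13 (MUNC genomic). The causes were not tested. Depth limits Car4, Car12, Car14 and Car8 in MUNC genomic DM3.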
